A study of Homo sapiens with 6 samples.

Results

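INHBA and CD109 were followed by RNA sequencing in Kasumi-1, an established human line of acute myeloid leukaemia with the RUNX1-RUNX1T1 fusion. INHBA encodes the beta A subunit of inhibins and activins, and CD109 encodes a surface glycoprotein that acts as a TGF-beta co-receptor. These are 2 of the 7983 genes in the deposited comparison, found by their gene names. Both were chosen by their lower normalized counts in knockout cells in this same comparison, so their levels are described here without a test and support nothing further.

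The 3 control libraries came from cells with a non-targeting guide (sgNT, genotype WT), and the 3 knockout libraries from cells with a guide against SETD8 (sgSETD8, genotype SETD8 knockout) made by CRISPR/Cas9. SETD8, whose current symbol is KMT5A, encodes a methyltransferase of histone H4. All 6 libraries were from cells grown in the same medium, and poly-T beads were used to enrich mRNA. Nothing in the labels tells if libraries with different numbers are different cultures, clones or guides. A p-value here therefore reflects only how these samples spread, and that spread may be technical.

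The beta A subunit pairs with itself to form activin A, and with the inhibin alpha subunit to form inhibin A. Activin A binds type II receptors, which recruit and activate the type I receptor ACVR1B, and the signal passes through SMAD2, SMAD3 and SMAD4 to the nucleus. In blood-forming tissue activin is known for promoting erythroid maturation. CD109 is tied to the membrane by a glycosylphosphatidylinositol (GPI) anchor, belongs to the thioester protein family of alpha-2-macroglobulin and complement, and is found on activated platelets, activated T cells and some CD34+ progenitors. It binds TGF-beta, associates with the type I receptor TGFBR1 and is known for dampening the TGF-beta signal.

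INHBA (ENSG00000122641) lies on the minus strand of chromosome 7, from 41667168 to 41705834 in hg38, and CD109 (ENSG00000156535) on the plus strand of chromosome 6, from 73695785 to 73828316. GENCODE release 29 gives both genes 5 transcripts, with 8302 exon bases for INHBA and 9782 for CD109, and its coordinates equal those of the deposited table. The stretch before the RefSeq start of INHBA (GRCh38.p14, chr7:41703109-41703340, minus strand) is given because this gene had the larger difference. That start is at 41703090, inside the GENCODE gene, so the window is also intronic in longer GENCODE transcripts. Distances to neighbours given further on are counted from the GENCODE start at 41705834. The sequence runs 5′ to 3′ from 250 to 19 bases before the RefSeq start, with matches to the searched motifs in capitals.
INHBA upstream: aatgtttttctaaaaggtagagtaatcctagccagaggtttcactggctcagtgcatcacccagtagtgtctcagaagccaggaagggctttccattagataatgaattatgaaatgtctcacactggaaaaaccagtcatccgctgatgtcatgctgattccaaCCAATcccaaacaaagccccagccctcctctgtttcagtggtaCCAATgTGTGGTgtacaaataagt

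The capitals mark 2 CCAAT boxes, which begin 85 and 42 bases before the start, and 1 RUNX core (TGTGGT), which begins 36 bases before it and overlaps neither. Both strands were searched. Of 35116 RefSeq promoter windows of the same length, 30.9% held CCAAT and 10.3% held TGTGGT. INHBA's window had 1 CG dinucleotide and 44.0% G and C, and that of CD109 had 10 and 53.0%, where the medians of all windows were 10 and 57.8%. No letters matching an AP-1 site (TGANTCA), a cyclic AMP response element (TGACGTCA), a SMAD box (CAGAC) or a TATA box (TATAAA) were in either window, and 6.26%, 1.44%, 36.0% and 10.4% of all windows hold them. The CD109 window (chromosome 6, 73695953 to 73696184) also had no match to CCAAT or TGTGGT. It lies inside an annotated 5′ UTR of CD109, so its sequence is not given.

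INHBA, the ligand gene, went from a modest level to one near the low end of the tested genes. In control libraries 1, 2 and 3 it read 476, 439 and 409 normalized counts, and in knockout libraries 1, 2 and 3 it read 21.9, 17.9 and 28.0. Every control library was above every knockout library, with the lowest control value 14.6 times the highest knockout value. The means were 442 ± 33.5 and 22.6 ± 5.11 (SD, n = 3 each), which leaves the knockout level at 5.12% of control. On the log2(value + 1) scale the difference was -4.25, and the authors' deposited table gives -4.28. A total of 1331 reads lay behind the control values and 69 behind the knockout values, where counting error alone is 12% of the knockout sum.

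CD109, the co-receptor gene, was an abundant transcript in control cells and kept a clear signal in knockout cells. Its normalized counts were 3858, 3560 and 3822 in control libraries 1, 2 and 3, against 496, 509 and 568 in knockout libraries 1, 2 and 3. The groups were again apart, the lowest control value being 6.27 times the highest knockout value. With means of 3747 ± 162 and 524 ± 38.1 (SD, n = 3 each), the knockout level was 14.0% of control. The log2 difference was -2.84 in both the values computed here and the authors' deposited table, on 11294 control and 1597 knockout reads.

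**Figure D1:**
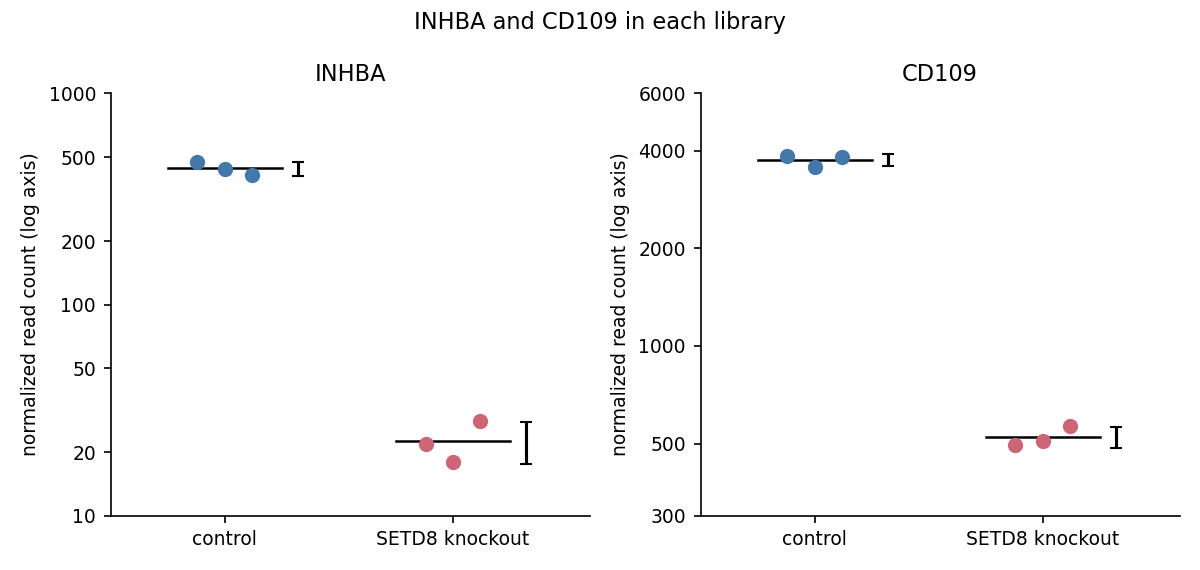
Normalized read counts of INHBA (left) and CD109 (right) in each library, on log axes. Points are libraries 1 to 3 of each group, lines are group means and bars are 1 SD. INHBA sits between 409 and 476 in control and between 17.9 and 28.0 in knockout libraries, and CD109 between 3560 and 3858 and between 496 and 568.

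Per kilobase of exon, CD109 was the more abundant of the pair in both groups. Its level was 383 normalized counts per kb in control and 53.6 in knockout, where INHBA had 53.2 and 2.72. The knockout level of CD109 was thus near the control level of INHBA. Among the 7516 genes with a mean of at least 10, 81.3% had a lower control level per kb than CD109 and 26.9% a lower one than INHBA. In knockout cells these shares were 29.1% and 2.82%. Within single libraries the ratio of CD109 to INHBA per kb was 6.88, 6.88 and 7.93 in control and 19.2, 24.2 and 17.2 in knockout, so INHBA was lower by the larger factor in each knockout library.

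Replicates were about as close for these genes as for others of similar level. The SD of log2(value + 1) over the control libraries was 0.11 for INHBA, against a median of 0.10 over 2532 tested genes within a factor of 2 of its control mean. For CD109 it was 0.063, against 0.056 over 1260 genes. Over the knockout libraries INHBA had an SD of 0.31 (median 0.38 over 529 genes), and CD109 0.10 (median 0.10 over 2662 genes).

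The size of these differences is placed by the rest of the table. Genes entered it only with an unadjusted p of at most 0.049998, out of 19860 adjusted over by the authors, and genes outside it were not analysed here. Of the 7516 tested genes, 94.1% were called at an adjusted p below 0.05 (limma-trend, Benjamini-Hochberg), 47.3% higher and 46.7% lower. Groups did not overlap for 95.4%, with knockout below control in 47.4% and above it in 48.0%, so the separation seen for INHBA and CD109 is the usual state of a listed gene, while 24 tested genes had a more negative log2 difference than INHBA and 87 than CD109. Calls leaned by chromosome. On chromosomes 17, 16 and 10, 73.7% of 548, 65.4% of 347 and 60.6% of 325 tested genes were called lower. On chromosomes 21, 8 and 19, 80.0% of 85, 67.8% of 273 and 64.2% of 509 were called higher. Several genes named below lie on these chromosomes, RUNX1 on 21 among them, and the part of this in their values was not tested. Reads in listed genes ran from 10966349 to 12557974 per library, and KMT5A itself read 1191 to 1255 normalized counts in control and 880 to 939 in knockout libraries. Defining genes of the line were present: KIT was the highest of 10 listed myeloid blast markers at a control mean of 60704, followed by MPO, CD34 and RUNX1. The summed blast marker level was 91520 to 94609 in control and 68003 to 69901 in knockout libraries, a sum made up mostly of KIT and MPO, which fell with PTPRC. The other blast markers did not fall: CD33, ANPEP, RUNX1, SPI1 and CEBPA were called higher, CD34 and RUNX1T1 were not called, and the median log2 fold change of the 10 was 0.34.

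Other ligands of the TGF-beta family moved in both directions. Counting 32 ligand genes beside INHBA, 6 were tested, of which 2 rose, 3 fell and 1 was not called. Over all tested genes 94.1% were called, 47.3% higher and 46.7% lower, so a split in both directions is the usual state of listed genes. INHBE, which encodes a related activin subunit, read 331, 226 and 287 in control and 67.7, 67.5 and 66.3 in knockout libraries, without overlap. This is a 4.19-fold fall (log2 -2.03, SE 0.17, limma adjusted p = 2.70e-09). INHBC, the subunit gene beside it on chromosome 12, had means of 37.1 and 16.3 with overlapping groups and was not called by limma (adjusted p = 0.0631), but was by edgeR (0.0322) and DESeq2 (0.0460), and by limma without control 1 (0.0134) or knockout 2 (0.0441). Here and below, edgeR and DESeq2 calls rest on the same reads as the authors' p that let genes into the table, so they are not independent of that entry. TGFB3 fell from 181 ± 9.48 to 101 ± 6.76 (adjusted p = 0.000211). TGFB1, the most abundant ligand transcript tested, read 4189 ± 310 and 3725 ± 177, a small fall (log2 -0.17, adjusted p = 0.0371) whose call was lost without control 2, control 3 or knockout 2 (0.123, 0.293 and 0.240). The ligands that rose were BMP8B, from 55.8 ± 6.91 to 161 ± 20.7, and AMH, anti-Mullerian hormone, from 228 ± 31.3 to 505 ± 22.3. AMH lies on chromosome 19, which has the share of higher genes given above, and so does TGFB1, which fell. INHA and INHBB, the partners of the beta A subunit, are outside the table.

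Receptors moved in both directions as well. Of 12 receptor genes, 5 were tested: 3 rose and 2 fell, beside 47.3% higher and 46.7% lower over all tested genes. ACVR1B, the type I receptor used by activin A, read 690, 631 and 584 in control and 1009, 999 and 1049 in knockout libraries, a 1.6-fold rise (log2 0.68, SE 0.082, adjusted p = 4.37e-07). TGFBR1, the type I receptor that CD109 associates with, read 766, 672 and 639 against 294, 307 and 318. It fell 2.26-fold (log2 -1.17, SE 0.10, adjusted p = 3.05e-09). ACVRL1, a type I receptor known from endothelium, rose from 57.3 ± 5.97 to 156 ± 34.4, and BMPR1A rose from 866 ± 10.1 to 1275 ± 56.0. BMPR2, the type II receptor for bone morphogenetic proteins, fell from 637 ± 57.7 to 411 ± 25.1. TGFBR1 lies on chromosome 9, where 74.1% of 336 tested genes were called lower, and the part of this in its fall was not tested. BMPR1A, which rose, lies on chromosome 10, which has the share of lower genes given above. The activin type II receptors ACVR2A and ACVR2B and the TGF-beta type II receptor TGFBR2 are outside the table.

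Co-receptors other than CD109 did not share one direction. Of 9 such genes, 3 were tested. NRP1, neuropilin 1, a co-receptor of several growth factors that also binds TGF-beta, fell from 2448 ± 21.6 to 739 ± 28.2 (log2 -1.73, adjusted p = 3.88e-15). It lies on chromosome 10, which has the share of lower genes given above. ENG, endoglin, had means of 2267 ± 195 and 2016 ± 27.6 and was not called by limma (adjusted p = 0.0532), but was by edgeR (0.0276) and DESeq2 (0.0342), and by limma without control 1 (0.0118). TGFBR3, betaglycan, was low, at 19.4, 9.72 and 36.7 in control and 44.8, 46.7 and 36.4 in knockout libraries, and was called higher (log2 1.10, adjusted p = 0.0319) although the groups overlap. That call was lost without control 1, control 2, knockout 1 or knockout 2 (adjusted p 0.0748, 0.238, 0.0867 and 0.108), and with edgeR (0.0610) and DESeq2 (0.0804).

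Those intracellular genes of the pathway that were tested were mostly lower, in a table that holds only genes with an unadjusted p up to 0.049998. Of 19 SMADs and partners, 8 were tested, of which 6 fell, 1 rose and 1 was not called, beside 46.7% lower and 47.3% higher over all tested genes. Their median log2 fold change was -0.54, where that of all tested genes was 0.14. The others of the 19 are outside the table, so no direction is known for them. SKIL, which encodes the SMAD corepressor SnoN, read 1642, 1508 and 1477 in control and 212, 237 and 255 in knockout libraries, a 6.57-fold fall (log2 -2.71, SE 0.093, adjusted p = 6.29e-16). SKI, its close relative, fell from 1262 ± 151 to 710 ± 71.9. SMAD7, the inhibitory SMAD induced by TGF-beta and activin, read 171, 154 and 164 in control and 80.3, 52.6 and 36.4 in knockout libraries (log2 -1.58, SE 0.23, adjusted p = 9.17e-06). SMAD4, the common partner, fell from 1312 ± 58.7 to 903 ± 49.1. SMAD2, which relays the activin signal, had means of 1928 ± 82.6 and 1726 ± 71.9 and was not called by limma (adjusted p = 0.0538). It was called by edgeR (0.0334) and DESeq2 (0.0365), and by limma without control 2 (0.0491) or knockout 1 (0.0340). SMAD6, an inhibitor mainly of the bone morphogenetic protein branch, was the one that rose, from 797 ± 52.5 to 1187 ± 95.1. SMAD2, SMAD4, SMAD7 and NEDD4L, 4 of the 8, lie on chromosome 18, where 54.4% of 125 tested genes were called lower. SMURF2, which fell from 722 ± 65.6 to 497 ± 33.5, lies on chromosome 17, where 73.7% of 548 were called lower. SKI fell on chromosome 1, where 56.0% of 727 were called higher. The part of these chromosome shares in the values was not tested.

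Extracellular antagonists and latency proteins went both ways. Of 24 genes, 6 were tested: 2 rose, 2 fell and 2 were not called, beside 47.3% higher and 46.7% lower over all tested genes. FST, follistatin, which binds and neutralises activin, was low, reading 8.18, 8.75 and 8.92 in control and 33.4, 38.7 and 38.3 in knockout libraries. Its rise was 4.27-fold (log2 1.97, SE 0.40, adjusted p = 0.000333). LRRC32, which holds latent TGF-beta at the cell surface, rose from 52.9 ± 13.2 to 167 ± 23.9. NOG, noggin, an antagonist of bone morphogenetic proteins, fell from 1284 ± 69.3 to 475 ± 43.1. It lies on chromosome 17, which has the share of lower genes given above. FBN1, the microfibril protein fibrillin 1, fell from 54.8 ± 11.5 to 26.6 ± 4.15 (adjusted p = 0.00998), a call lost without control 1 (0.0622).

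Among tested genes known to respond to TGF-beta or activin, more were lower than higher. Of 23 such genes, 12 were tested: 8 fell and 4 rose, with a median log2 fold change of -1.38, beside 46.7% lower and 47.3% higher over all tested genes. SKIL and SMAD7 are among the 8 and were counted with the SMADs and partners as well. The list was drawn up with earlier results of these data known, and its remaining genes are outside the table or too low to test. No response of the whole class can therefore be read from this count. PMEPA1, a transmembrane feedback inhibitor of the pathway, read 174, 176 and 160 in control and 25, 32.8 and 29.9 in knockout libraries (log2 -2.51, SE 0.22, adjusted p = 4.22e-09). BHLHE40, a basic helix-loop-helix repressor, fell from 2314 ± 96.9 to 442 ± 40.2. SNAI1, KLF10 and TSC22D1 fell with log2 fold changes of -1.90, -1.18 and -1.13. TGFBI completed the 8, at 15.3, 25.3 and 15.9 in control and at most 2.08 in knockout libraries, too few reads for a fold. Against the majority of the list, CDKN1A (the cyclin-dependent kinase inhibitor p21) rose from 371 ± 33.8 to 1615 ± 70.6, and ID3 and FN1 rose by 1.45 and 1.97 on the log2 scale. JUNB rose by 0.20 (adjusted p = 0.0252), a call lost without control 1 (0.138), without knockout 1 (0.138) and with upper-quartile scaling (0.117). PMEPA1 and SNAI1 lie on chromosome 20, where 71.0% of 224 tested genes were called lower, and its part in their fall was not tested. KLF10, which fell, lies on chromosome 8, which has the share of higher genes given above. Over all 6 roles together, without INHBA and CD109, 38 of 116 genes were tested, of which 13 rose, 20 fell and 5 were not called (median log2 -0.52).

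**Figure D2:**
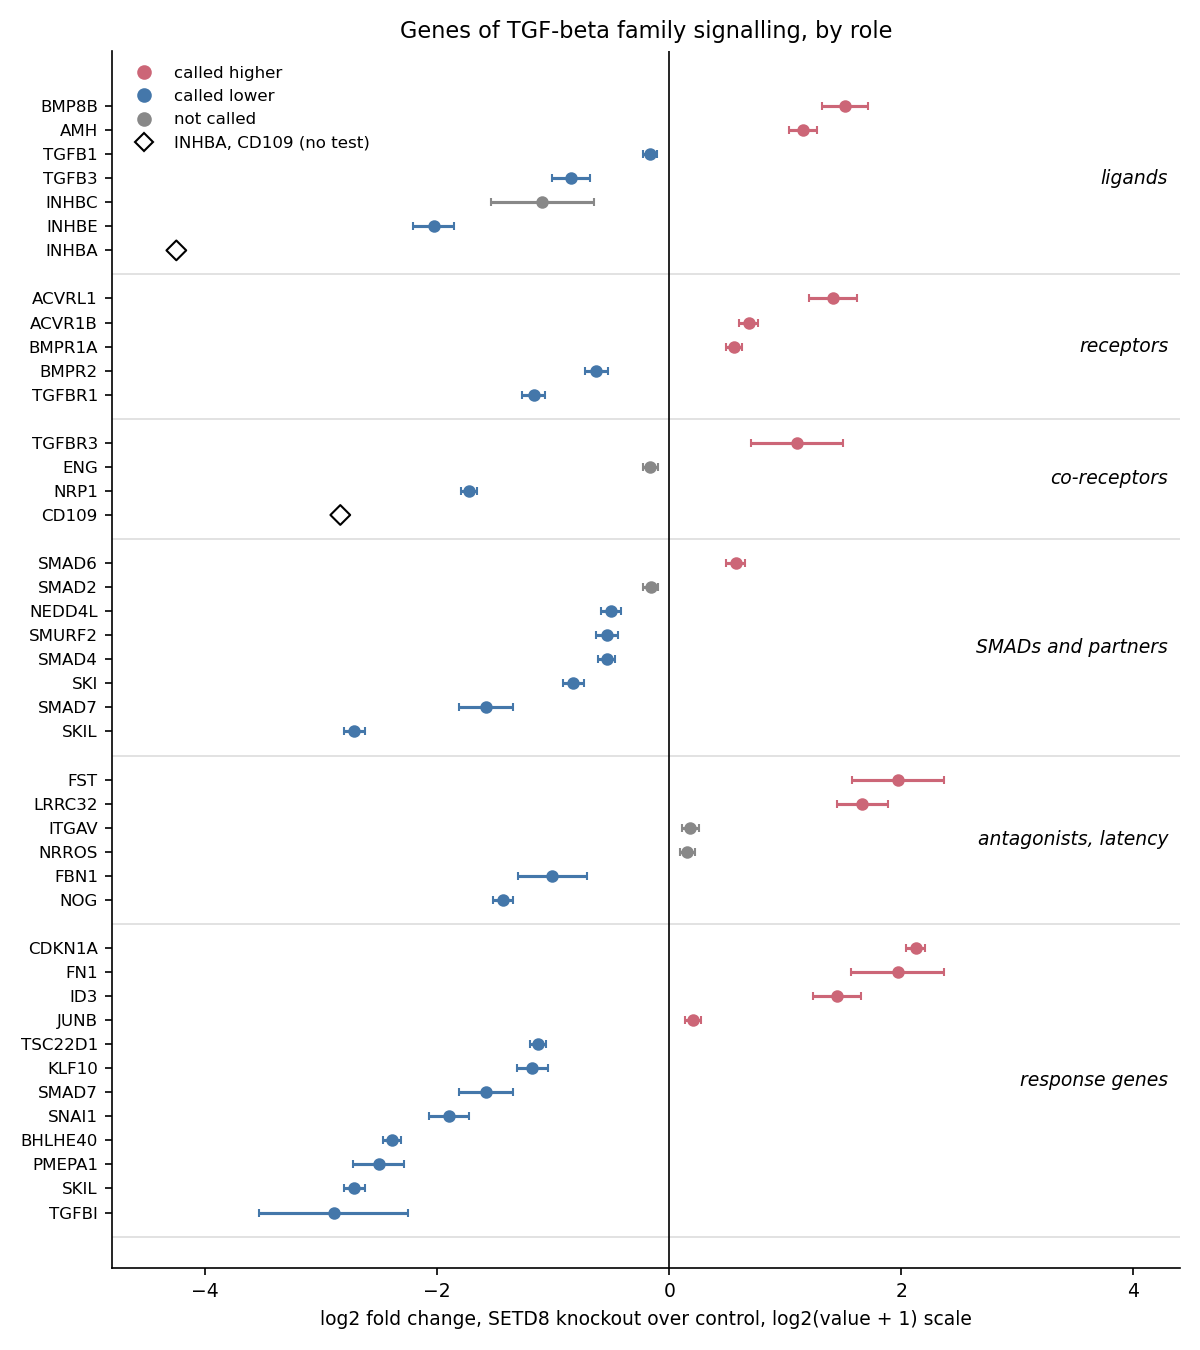
Log2 fold change on the log2(value + 1) scale, SETD8 knockout over control, of tested TGF-beta family genes by role. Dots are limma estimates with bars of 1 SE, coloured by call, and open diamonds are INHBA (-4.25) and CD109 (-2.84), which have no test. SMADs with their partners and response genes lie mostly left of 0, and the other roles fall on both sides. SKIL and SMAD7 are drawn under both roles that hold them.

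CD109 has relatives by sequence and by anchor, and these parted. Its thioester family held 8 further genes, of which 2 were tested and both fell, in a table where 94.1% of tested genes were called and 46.7% were lower. C3 of complement read 72.6, 151 and 118 in control and 3.13, 21.8 and 14.9 in knockout libraries (log2 -3.26, SE 0.46, adjusted p = 4.15e-06). C3 lies on chromosome 19, which has the share of higher genes given above. C5 fell from 353 ± 16.3 to 88.4 ± 19.8 (adjusted p = 1.79e-09) and lies on chromosome 9, which has the share of lower genes given above. A2M, PZP and CPAMD8 are outside the table.

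Other tested GPI-anchored proteins of blood cells moved mostly the other way from CD109, and the rest of the list is outside the table. Of 18 genes, 7 were tested: 6 rose and 1 fell, beside 47.3% higher and 46.7% lower over all tested genes. Their median log2 fold change was 1.03, where that of all tested genes was 0.14. LY6E rose from 3987 ± 231 to 8644 ± 623, and CD59, which protects cells from complement, from 895 ± 39.3 to 1829 ± 89.8. LY6E lies on chromosome 8, which has the share of higher genes given above. BST1, a surface enzyme of myeloid cells, rose from 257 ± 17 to 607 ± 53.0 (adjusted p = 3.48e-09). The gene that fell was PLAUR, the urokinase receptor, singled out after its value was seen, from 976 ± 83.9 to 590 ± 22.7. PLAUR lies on chromosome 19, which has the share of higher genes given above. CD48 was low and called higher at means of 15.9 and 32.8 (adjusted p = 0.0374). It lost its call without control 1, control 2 or knockout 1, 2 or 3 (adjusted p 0.0716, 0.101, 0.147, 0.0635 and 0.0677), with DESeq2 (0.0538) and with upper-quartile scaling (0.0513).

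**Figure D3:**
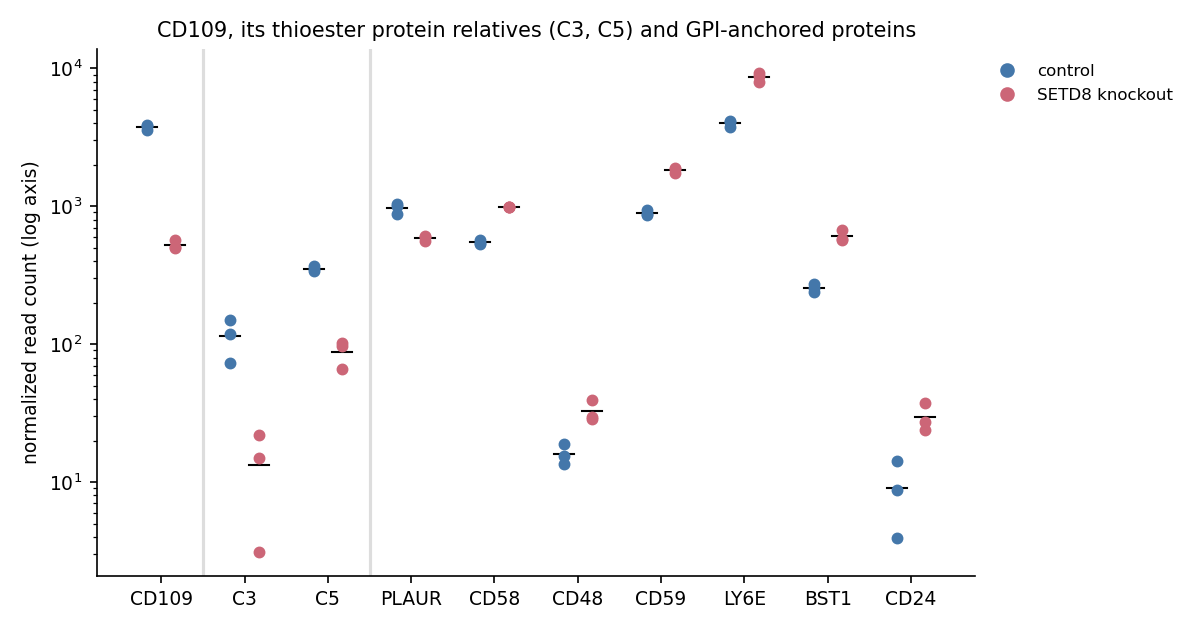
Normalized read counts per library on a log axis for CD109, the thioester relatives C3 and C5, and tested GPI-anchored proteins. Points are libraries and short lines are group means. CD109, C3, C5 and PLAUR sit lower in knockout libraries, and the other GPI-anchored genes sit higher.

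CD109 is also a platelet protein, so megakaryocyte markers were read beside it. Of 11 markers, 4 were listed, with a summed level of 171 to 215 in control and 94.3 to 105 in knockout libraries, far under that of CD109. ITGA2B fell from 135 ± 18.1 to 74.7 ± 10.5 (adjusted p = 0.00144). GP9 went the other way, at 0, 0 and 0.991 in control and 12.5, 3.97 and 1.87 in knockout libraries, too low to test. PF4, PPBP, GP1BA and VWF are outside the table. Of 11 monocyte and macrophage markers 4 were listed, summing to 182 to 248 in control and 225 to 273 in knockout libraries. Of these, 2 were called higher and 2 lower, beside 47.3% and 46.7% over all tested genes. LYZ, lysozyme, read 2.04, 4.86 and 0 in control and 57.3, 34.8 and 22.4 in knockout libraries, and CSF1R rose from 113 ± 43.1 to 179 ± 12.1 (adjusted p = 0.00890), a call lost without control 1 (0.0881). VCAN fell from 33.3 ± 5.98 to 8.10 ± 4.36 and ITGAM from 60.5 ± 7.22 to 27.5 ± 15.8. Of 10 erythroid markers EPOR alone was listed, at 338 to 373 in control and 553 to 583 in knockout libraries. Of 6 lymphoid markers 3 were listed, summing to 1216 to 1239 and 1579 to 1800, while none of 5 stromal and endothelial markers was. The part of these markers in the levels of INHBA and CD109 was not tested. In bulk RNA, fewer cells of a type and less RNA per cell cannot be told apart.

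Listed genes within 5 Mb of INHBA were mostly higher, and those within 5 Mb of CD109 were mixed. Of 23 tested genes whose start lies within 5 Mb of that of INHBA, 19 rose, 3 fell and 1 was not called (median log2 fold change 0.45). Over all tested genes 47.3% were called higher and 46.7% lower. On chromosome 7 the shares were 54.7% and 40.5% of 338, and the part of this in the count was not tested. Most of the 23 lie far from INHBA, and only GLI3 starts within 1 Mb. TRGV4, TRG-AS1, TRGC1 and TRGC2 lie together, with starts 3351 to 3456 kb away, so they are not separate places. The nearest listed protein-coding gene, GLI3, a transcription factor of the Hedgehog pathway that starts 532 kb away, read 305, 308 and 334 in control and 443, 493 and 516 in knockout libraries (log2 0.61, adjusted p = 6.00e-05). Within 5 Mb of CD109, 9 genes were tested, of which 4 rose, 4 fell and 1 was not called (median 0.16). On chromosome 6, 50.1% of 367 tested genes were called higher and 42.2% lower. SLC17A5, which encodes the lysosomal sialic acid exporter sialin and starts 41.6 kb away, read 838, 804 and 880 in control and 395, 412 and 366 in knockout libraries (log2 -1.10, SE 0.090, adjusted p = 1.30e-09). EEF1A1, the elongation factor 172 kb away, had means of 290100 and 325368 and was not called by limma (adjusted p = 0.303), but was by edgeR (0.0368) and DESeq2 (0.00647). RPL39P3, a processed pseudogene that can share reads with its parent, had means of 1781 and 1426 (adjusted p = 0.00167). AL603910.1, an antisense gene of at most 7.47 normalized counts in any library, was too low to test.

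The listed gene that starts nearest to INHBA was also lower, beside the 3 tested neighbours that fell. INHBA-AS1, an antisense RNA that starts within the INHBA gene, read 9.20, 11.7 and 12.9 in control and 0, 1.99 and 3.74 in knockout libraries. Its mean was under 10, so it was not among the tested genes, and with no filter on low values its adjusted p was 0.00428 (limma, log2 -2.33). The genes share 11919 bases of span but 0 exon bases. CD109 shares 300 exon bases, 3.07% of its own, with AL590428.1, an antisense gene that is outside the table. The sources used here do not tell if counting used the strand, so reads in those 300 bases cannot be assigned to one of these partners. If strand was ignored, INHBA-AS1 reads in the shared span cannot be told from unspliced INHBA reads either, and this was not tested.

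**Figure D4:**
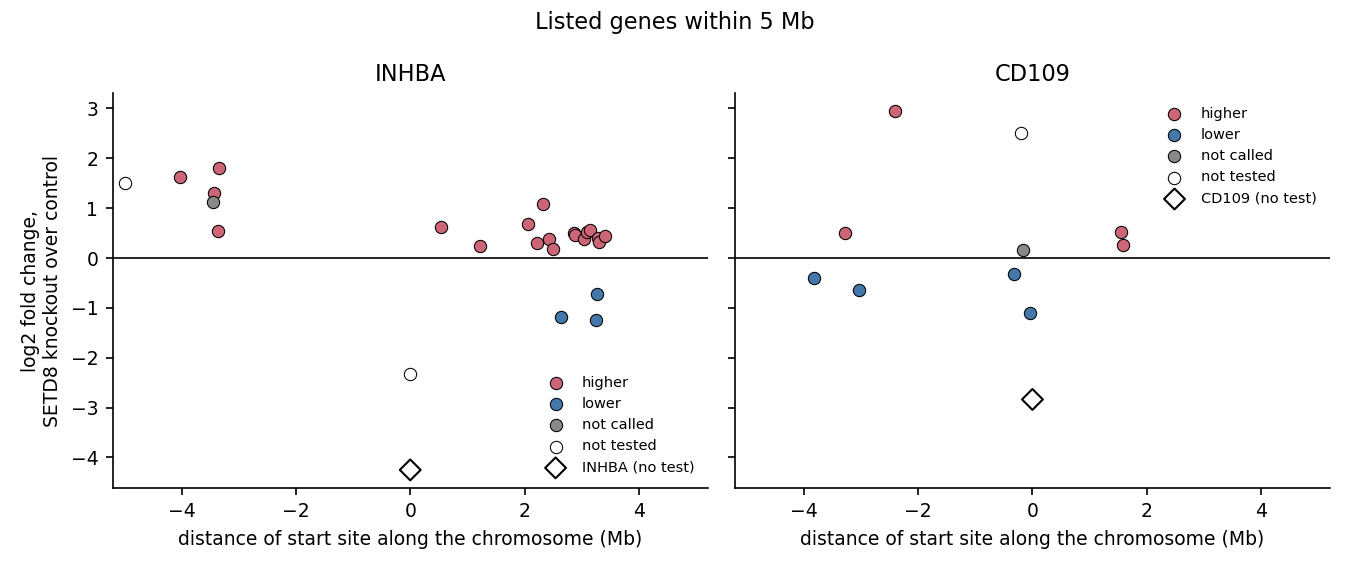
Log2 fold change of listed genes against the distance of their start site from that of INHBA (left) or CD109 (right), in Mb along the chromosome. Dots are coloured by call, white dots were not tested, and open diamonds are INHBA and CD109. Within 5 Mb of INHBA 19 of 23 tested genes rose, and INHBA-AS1 is the white dot under 0.

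Genes with the most similar profile over the 6 libraries differed between INHBA and CD109. Likeness was the Euclidean distance between log2(value + 1) profiles after each gene's mean was removed, over 6418 protein-coding genes whose mean reached 50. It is built from the contrast by which INHBA and CD109 were chosen, so it returns genes with a like fall and supports nothing further. For INHBA the nearest were PCYT1B (distance 0.71), LY86 (0.73), MFAP4 (0.73), PADI3 (0.82) and PLCH1 (0.90), where the median gene was at 5.43. LY86 encodes the partner of an innate immune receptor, MFAP4 a microfibril protein, PADI3 a peptidyl arginine deiminase and PCYT1B an enzyme of phosphatidylcholine synthesis. LY86 went from a mean of 316 to 11.7 and PADI3 from 809 to 46.4. All 5 reached a mean of 50 only through the control libraries, with knockout means of 11.0 to 46.4.

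For CD109 the nearest gene was SKIL, at a distance of 0.21, followed by MPO (0.29), KLF12 (0.37), XYLT1 (0.40) and ADAM12 (0.41), where the median gene was at 3.68. SKIL is the SMAD corepressor described above. MPO, myeloperoxidase, went from 12254 ± 373 to 1541 ± 27.3 and is a granule enzyme of myeloid cells. KLF12, a transcriptional repressor, went from 454 to 58.1, XYLT1, an enzyme of proteoglycan synthesis, from 668 to 104, and ADAM12, a metalloprotease, from 278 to 45.3. INHBA and CD109 were 1.77 apart from each other, farther than any of these. With 2 groups of 3 libraries the distance follows mainly the size of the group difference. MPO and MFAP4 lie on chromosome 17, XYLT1 on 16 and ADAM12 on 10, which have the shares of lower genes given above.

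**Figure D5:**
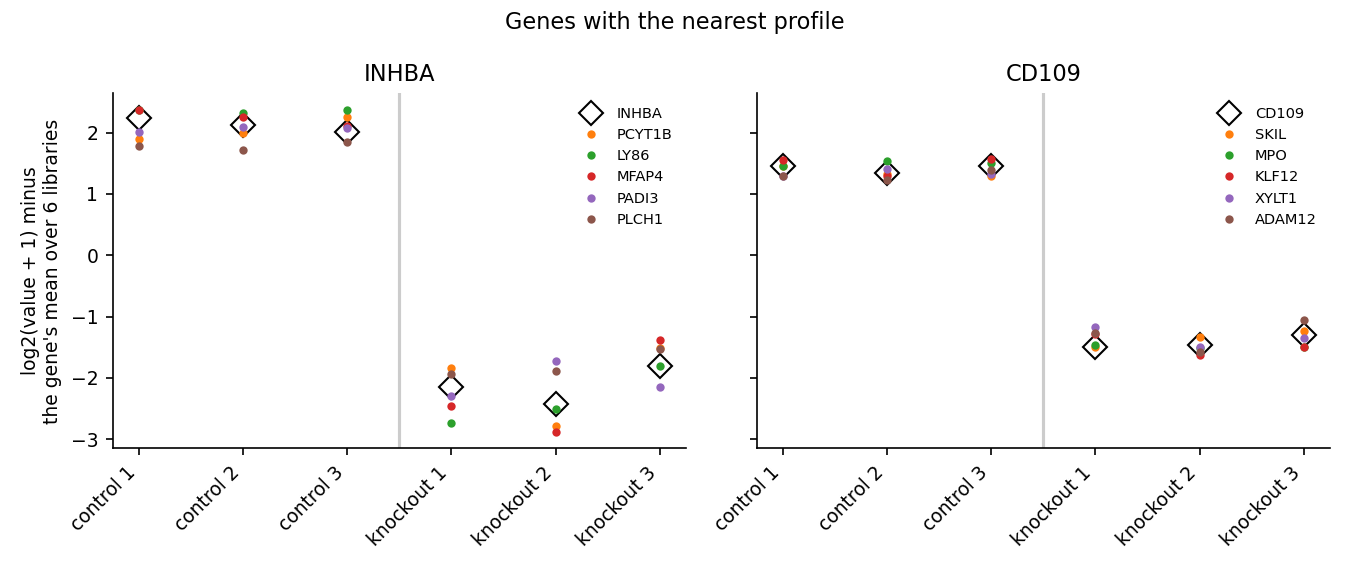
Log2(value + 1) minus the gene's mean over the 6 libraries, for INHBA (left) and CD109 (right, open diamonds) and the 5 genes with the nearest profile to each (dots). Control libraries are left of the grey line and knockout libraries right of it. Distances were 0.21 to 0.41 for CD109 and 0.71 to 0.90 for INHBA. They follow mainly the contrast by which both genes were chosen, so nothing further is read from them.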

How the data were processed

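Poly-T selected RNA of 6 Kasumi-1 samples was made into directional libraries, per the labels' protocols. HISAT2, DESeq2 and build hg38 are named, per the submitters' processing notes, with no versions. No source used here names a gene counter. The deposited signal of each library is the authors' read count divided by a size factor, per the file headers and values: dividing by the worth of 1 read gave whole numbers within 0.001 for 100% of values, with size factors from 0.959 to 1.07. The authors also deposited group means, a log2 fold change and a p-value per gene, and only genes with p up to 0.049998 are listed.

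Genes with a mean of at least 10 (7516, leaving out 467) entered a two-sided limma-trend test of log2(value + 1), without block (R 4.3.3, limma 3.58.1). Benjamini-Hochberg adjustment was over 19860 genes, the number that the deposited adjustment implies. Fold changes on this scale understate low genes. On simulated counts for these 7516 genes, recovery was 42% for a 1.25-fold change, 78% for 1.5-fold, 94% for 2-fold and 100% for 4-fold, with 5 false calls. That simulation adjusted over the 7516 genes only, changed 50 genes per fold and had no entry filter on p. Its rates therefore do not carry over to the listed genes, of which 94.1% of those tested were called. Alternatives were TMM and upper-quartile scaling, edgeR 4.0.16 and DESeq2 1.42.0 on recovered reads, pseudocounts of 0.5 and 5, other filters, adjustment over tested genes only, a replicate block and leaving out each library. DESeq2 is also the tool named in the submitters' notes, so its calls here may largely repeat the entry filter. Within each group, library differences exceeded sampling noise (chi-square per degree of freedom 3.87 to 12.2).

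INHBA and CD109 and all gene lists were chosen with earlier results of these data known. Named genes were up to 4 called genes per list, those changed most with a mean of 20 or more, listed genes within 1 Mb, the 5 nearest profiles and the 2 highest genes of each marker list. Other list members named beside them were chosen after their values were seen. Coordinates and exons were compared with GENCODE release 29, and promoter windows came from RefSeq. The values of 1 marker gene are not reported here.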

Additional observations from a re-analysis of the deposited data

How the results depend on the processing

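INHBA kept a log2 difference of -4.41 to -4.10 when each library was left out in turn and -4.30 to -4.03 under the scalings, pseudocounts and other tools. CD109 kept -2.89 to -2.80 and -2.89 to -2.83. Signalling genes called ranged from 10 to 15 higher and 18 to 23 lower over all alternatives, and neighbours called lower from 6 to 8. Of 96 other genes with a test, those of the lists and those named, 21 changed their call under at least 1 alternative and none changed sign. Replicate numbers did not pair the libraries: deviations from the group means correlated at 0.0086, -0.0033 and -0.050 for numbers 1, 2 and 3. No library correlated best with its own number, but all values were small, from -0.050 to 0.036. With the replicate block 3569 genes were called higher and 3522 lower, against 3557 and 3513 without it. Among the 96 genes it changed 5 calls: INHBC (adjusted p = 0.0279), ENG (0.0406), NRROS (0.0457) and ITGAV (0.0458) were then called, and PIGH was not (0.0524). Upper-quartile scaling moved the calls to 3073 higher and 3708 lower. Depth limits the knockout level of INHBA, with 18 to 30 reads per library, and that of INHBA-AS1.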

Other observations

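Tested genes that build and attach the GPI anchor, which CD109 and its anchored relatives need to reach the membrane, were more often lower than higher. Of 28 genes, 16 were tested, of which 11 fell and 5 rose (limma, median log2 -0.32). The other genes of the list are outside the table, so no direction is known for them. Over all tested genes 94.1% were called, 46.7% lower and 47.3% higher. Calls of DPM1, PIGV, PIGN, PIGL, PGAP3 and PIGH were each lost when 1 library or another was left out (adjusted p 0.0525 to 0.163). PGAP1, which removes a fatty acid from the anchor, fell from 567 ± 70.3 to 277 ± 15.8 (adjusted p = 1.03e-07). PIGZ, a mannosyltransferase of the anchor, fell from 321 ± 42.0 to 186 ± 9.36, and PIGU, a subunit of the transamidase that joins anchor and protein, from 509 ± 24.9 to 329 ± 42.4. GPAA1, another subunit of the same transamidase, rose from 2450 ± 219 to 3811 ± 68.0 (adjusted p = 2.98e-08). PIGU lies on chromosome 20, where 71.0% of tested genes were called lower, and the part of that in its fall was not tested. GPAA1 lies on chromosome 8, which has the share of higher genes given above.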
